A study of Mus musculus with 6 samples.

Results

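The genes described are the Wnt ligands, the Frizzled receptors that bind them and the secreted Wnt inhibitors, 41 of the 19752 genes measured in skeletal muscle of dystrophic mice. They were taken by symbol, as every gene named Wnt, Fzd, Sfrp or Dkk with a number, plus Frzb, Wif1 and the Dkk-like gene Dkkl1. This choice was made with earlier results of these data known. The set held 19 ligands, 10 Frizzled receptors and 11 genes of the inhibitor families, of which 5 were secreted Frizzled-related proteins (Frzb is one of them), 5 belonged to the Dickkopf family and 1 was Wif1. The symbol pattern also took in Fzd10os, an RNA transcribed antisense to Fzd10 that encodes no receptor, and it is counted among the 41 but in no class. Each sample came from an mdx mouse, a strain that lacks dystrophin and whose muscle fibres degenerate and regenerate. The labels call every mouse male and 6 weeks old, whereas the series' design has 2 intraperitoneal injections, on days 17 and 20 of age, and dissection 7 days after the later one. A group of 3 samples came from mdx mice given the anti-CD25 monoclonal antibody PC61, which binds CD25, a subunit of the interleukin-2 receptor abundant on regulatory T cells, and the other 3 came from mdx mice that received rat IgG instead. The study's title gives the question as the effect of depleting regulatory T cells in dystrophic muscle, and no sample came from a mouse with dystrophin or from an uninjected mouse. A single array was run for each sample. Whether replicates came from separate animals is not stated, and the p-values cover only the spread of these samples, part of which may be technical.

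Wnt proteins are secreted, lipid-modified ligands that bind Frizzled receptors together with co-receptors such as Lrp5 and Lrp6. In the canonical branch this stops the destruction of beta-catenin, which then acts with TCF and LEF factors on target genes, while other branches act through planar cell polarity proteins or calcium. Secreted Frizzled-related proteins and Wif1 bind the ligands outside the cell, and Dkk1 acts on the co-receptors. In mouse muscle Wnt7a acts through Fzd7 on satellite cells, the stem cells of the fibre, and Wnt signals in general are known to bear on regeneration, fibrosis and the choice of mesenchymal progenitors between fates.

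Array facts that touch the results are few. All 12 genes of a fibre marker list lay above the array median on all 6 arrays. Xist, the RNA of the inactive X chromosome, lay between 11.77 and 11.94 log2 units on anti-CD25 1 and 2 and rat IgG 1 and 2. On anti-CD25 3 and rat IgG 3 it lay at 5.49 and 5.48. The Y-linked gene Eif2s3y lay between 3.47 and 3.77 on the 4 Xist-high arrays and at 9.22 and 9.16 on the other 2. Kdm5d, also Y-linked, lay between 4.62 and 5.09 on the 4 and at 7.85 and 7.80 on the other 2. The labels call all mice male, and these values go against that label for the 4 Xist-high arrays. Xist kind thus divides the arrays by the sex their RNA shows. Differences within the 4 Xist-high arrays and between the 2 Xist-low arrays are therefore given beside the pooled ones for the genes the results turn on. These had opposite signs in 25 of the 41 members, against 56.9% of all genes. By class, signs were opposite in 15 of 19 ligands, 5 of 10 receptors and 4 of 11 inhibitors. The Xist-low side holds 1 array in each group, so no spread can be given for its differences. Dim probe sets were not level across the arrays. Their lower quartile was 5.70 and 5.68 log2 units on anti-CD25 1 and 2 and 5.82 on anti-CD25 3. On rat IgG 1 and 2 it was 5.85, and on rat IgG 3 it was 5.68. Setting the Xist-high difference against the Xist-low one splits the arrays in the same way. An antibody difference that depends on Xist kind and this shift of dim values therefore cannot be told apart. Macrophage markers lay higher with anti-CD25 in 12 of 12 listed genes, with a summed intensity of 17819 to 23920 on the anti-CD25 arrays and 14969 to 18342 on the rat IgG arrays, none of them at 0. The part that this, or any other shift in the makeup of the tissue, plays in the results below was not tested, and in a piece of whole muscle fewer cells of a type and less RNA per cell cannot be told apart.

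Of the 41 genes, 16 lay above the array's median probe set value, 7.23 to 7.24 log2 units, on all 6 arrays, which is 39.0% of them against 47.7% of all genes. The receptors and the inhibitors held most of these. Above the median everywhere were 7 of 10 receptors (Fzd1, Fzd2, Fzd4, Fzd6, Fzd7, Fzd8 and Fzd9), 6 of 11 inhibitors (Sfrp1, Sfrp2, Sfrp4, Frzb, Dkk2 and Wif1) and 3 of 19 ligands (Wnt4, Wnt5a and Wnt9a). A further 3 genes, Wnt5b, Wnt10a and Sfrp5, passed the median on some arrays only, and 22 were below it on all 6. The brightness of one probe set also depends on its sequences, so these positions do not rank the genes against each other by amount of RNA, and a value below the median does not show that a transcript was absent.

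No member passed the test between anti-CD25 and rat IgG. Limma with Benjamini-Hochberg adjustment over all 19752 genes called 0 of the 41, and it called 0 genes anywhere, 0.0% of those tested, so this count does not set the members apart. The smallest adjusted p among the 41 was 0.750. At an unadjusted p under 0.05 there were 3 members, Fzd7, Fzd8 and Fzd3, all of them receptors and all lower with anti-CD25, beside 3.98% of all genes lower and 2.3% higher at that threshold. The other 38 had an unadjusted p above it. Values were lower with anti-CD25 in 32 of 41 members, against 58.9% of all genes, and the median difference was -0.071 log2 units, against -0.026 over all genes. Leaving out rat IgG 1 brought that median to -0.015, leaving out rat IgG 2 to -0.012, rat IgG 3 to -0.14 and anti-CD25 1 to -0.039. Differences are anti-CD25 minus rat IgG throughout. After a second quantile normalization of the deposited values, 30 of the 41 were lower, with a median of -0.036 against -0.012 over all genes. In the deposited values the share of lower genes differed with brightness. Of the 16 members above the median on all 6 arrays 12 were lower, with a median difference of -0.040. Of all genes above it 45.8% were lower, with a median of 0.011. Of the other 25 members 20 were lower, with a median of -0.075, against 70.8% and -0.063 for the other genes.

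**Figure D1:**
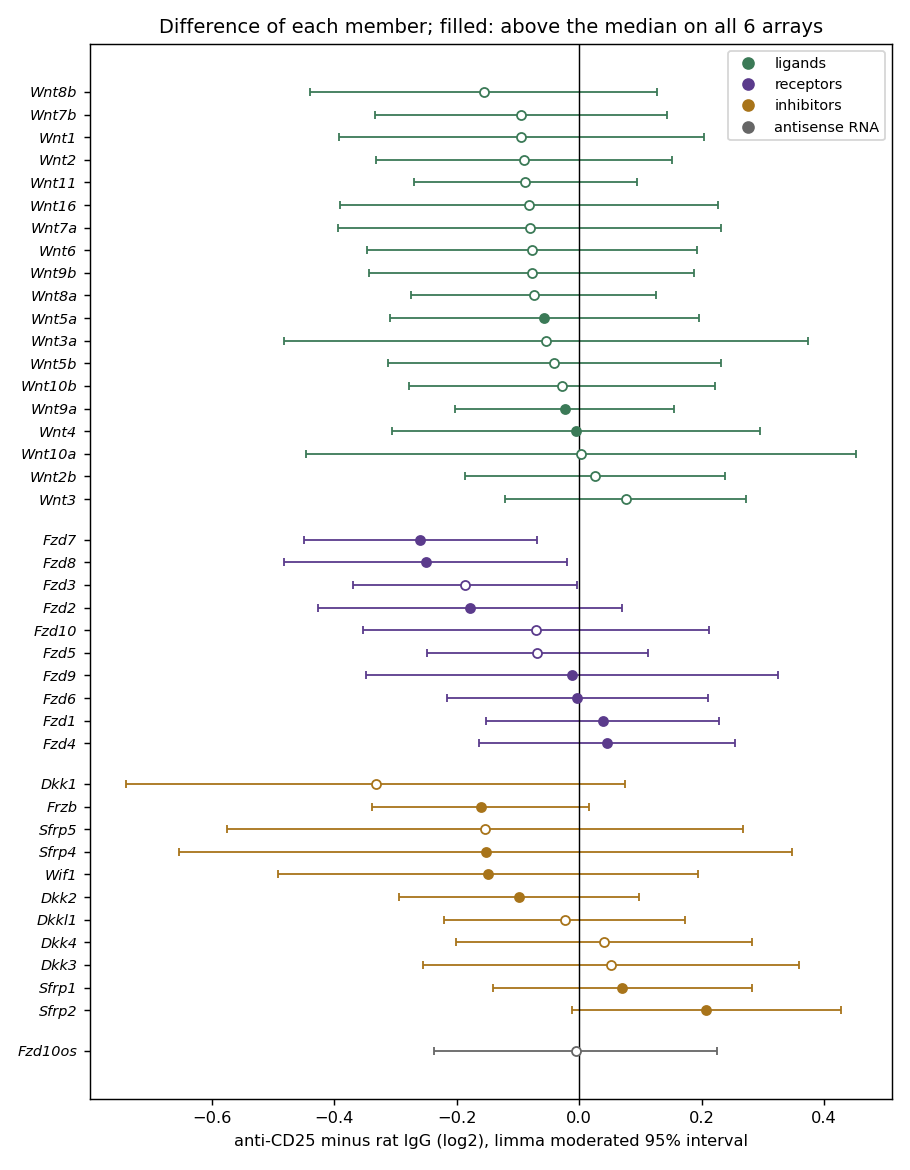
Difference of each of the 41 members, anti-CD25 minus rat IgG on the log2 scale (x axis), with limma's moderated 95% interval as the bar. Rows are sorted within ligands, receptors, inhibitors and the antisense RNA, and filled points are the 16 genes above the median on all 6 arrays. The intervals of Fzd7, Fzd8 and Fzd3 lie below 0 before any adjustment, and those of the other 38 include 0.

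Among the Frizzled receptors, 8 of 10 were lower with anti-CD25. Fzd7, the receptor through which Wnt7a acts on mouse satellite cells, had the smallest unadjusted p of the 41 genes. It measured 9.04, 9.10 and 8.96 log2 units on anti-CD25 1, 2 and 3, against 9.27, 9.39 and 9.23 on rat IgG 1, 2 and 3. All 3 anti-CD25 arrays lay below all 3 rat IgG arrays. The means were 9.03 ± 0.071 with anti-CD25 and 9.29 ± 0.081 with rat IgG (SD, n = 3 each), a difference of -0.26 (SE 0.084, 95% interval -0.45 to -0.069), which is 0.835 times the rat IgG level (limma unadjusted p = 0.0132, adjusted p = 0.750). Exact two-sided permutation of the arrays gave p = 0.1, the smallest that 3 against 3 samples can give. The difference was -0.25 within the 4 Xist-high arrays and -0.27 between the 2 Xist-low arrays, and with each array left out in turn it ran from -0.29 to -0.21.

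Fzd8, another receptor above the median, measured 7.77, 7.70 and 7.46 on the anti-CD25 arrays, against 7.86, 7.996 and 7.83 on the rat IgG arrays. The groups did not overlap, though anti-CD25 1 and rat IgG 3 lay close together. Its difference was -0.25 (SE 0.10, 95% interval -0.48 to -0.019, limma unadjusted p = 0.0368, adjusted p = 0.750), with -0.19 within the 4 Xist-high arrays and -0.37 between the 2 others. It was -0.16 without anti-CD25 3, the lowest array, and ran to -0.31 with another array left out. Fzd3, a receptor best known from axon guidance and planar polarity, was below the median on all arrays, at 6.05, 6.12 and 6.14 with anti-CD25 against 6.28, 6.22 and 6.36 with rat IgG. These groups did not overlap either, and the difference was -0.19 (SE 0.080, limma unadjusted p = 0.0457, adjusted p = 0.750). It was -0.17 within the 4 Xist-high arrays, -0.22 between the 2 others and -0.13 after a second quantile normalization. Fzd2 measured 8.14, 8.23 and 7.94 with anti-CD25, against 8.37, 8.36 and 8.12 with rat IgG. Its groups overlapped, because rat IgG 3 lay below anti-CD25 1 and 2, and the difference was -0.18 (SE 0.11). It was -0.18 in the 4 Xist-high arrays and between the 2 others, but -0.095 without anti-CD25 3 and -0.26 without rat IgG 3.

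Groups thus failed to overlap in 3 of 10 receptors, all lower, beside 7.46% of all genes lower without overlap and 4.28% higher. Over all 41 members 4 were lower and 1 was higher without overlap, beside 11.7% of all genes in either direction. The full set thus lay near the share of all genes. The 6 remaining receptors had pooled differences closer to 0. Fzd4, known from vessel development as the receptor of norrin, measured 9.57, 9.76 and 9.70 with anti-CD25 against 9.52, 9.65 and 9.73 with rat IgG, and its groups overlapped (difference 0.045, 95% interval -0.16 to 0.25). Fzd1 measured 8.78, 8.68 and 8.65 against 8.72, 8.57 and 8.70 in the same order (0.038, 95% interval -0.15 to 0.23). For both, the unadjusted interval does not reach as low as the Fzd7 estimate of -0.26. Fzd6, a receptor of the planar polarity branch, measured 7.72, 7.78 and 7.87 with anti-CD25 against 7.85, 7.89 and 7.64 with rat IgG, which overlapped with a difference of -0.0030 that turned above 0 after median centring. It was -0.12 within the 4 Xist-high arrays and 0.23 between the 2 others. Fzd5 and Fzd10, both below the median on all arrays, differed by -0.069 and -0.071. The Fzd10 difference was -0.23 within the 4 Xist-high arrays and 0.24 between the 2 others. Over all arrays it ran from -0.22 to 0.023 with each array left out in turn.

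Fzd9 differed by -0.012 while its arrays split in the same way in both groups. It measured 8.52, 8.50 and 8.08 with anti-CD25, against 8.50, 8.52 and 8.13 with rat IgG. The low value in each group belongs to the Xist-low array. Both Xist-low arrays lay below the other 4 arrays in 7 of the 41 members (Fzd2, Fzd9, Sfrp4, Wnt2b, Wnt3, Wnt4 and Wnt5a), which is 17.1% beside 4.21% of all genes, and 5 of the 7 were among the 16 genes above the median. Adipocyte markers were also low on these 2 arrays, at -0.30 and -0.23 log2 units for anti-CD25 3 and rat IgG 3 relative to the mean of the 6 arrays, over the 6 of 7 listed genes that were measured. Their summed intensity ran from 3440 to 4410 on the anti-CD25 arrays and from 3284 to 4036 on the rat IgG arrays, none at 0, and their part in the pattern was not tested.

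**Figure D2:**
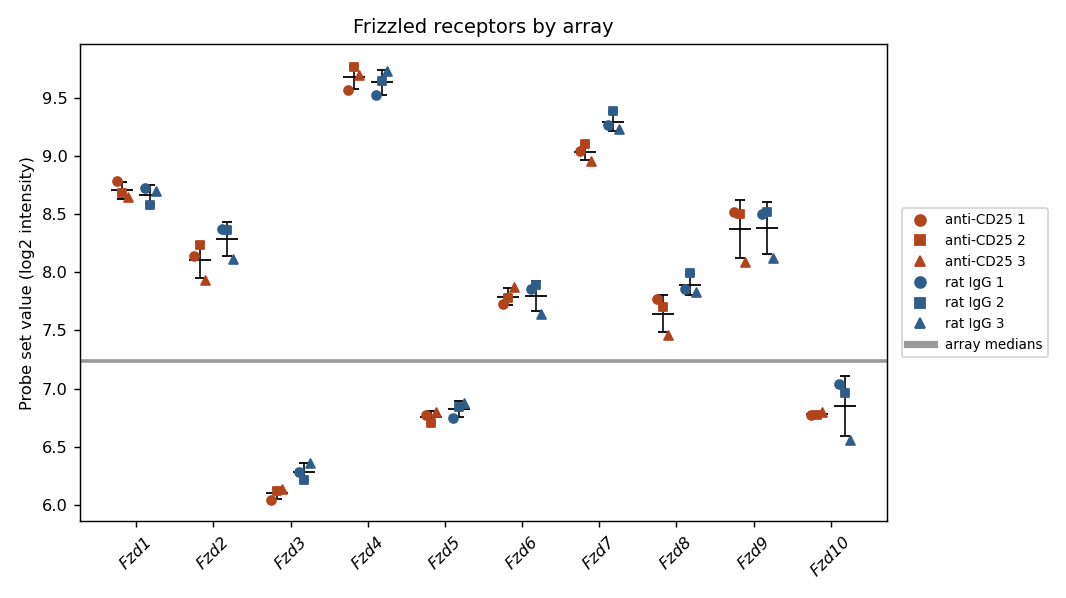
Log2 intensity (y axis) of the 10 Frizzled receptors on each array, with anti-CD25 left of rat IgG for each gene, symbols for arrays 1, 2 and 3, and bars for the mean and SD of 3 arrays. The grey line marks the array medians near 7.23. Fzd7, Fzd8 and Fzd3 show no overlap between groups, and the low triangles of Fzd9 in both groups are the Xist-low arrays.

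Among the inhibitors, 7 of 11 were lower and 4 higher with anti-CD25 (6 lower after a second quantile normalization), and Sfrp2 and Frzb lay in opposite directions. Sfrp2, a secreted Frizzled-related protein made by mesenchymal cells, was the 1 member that was higher with anti-CD25 without overlap, at 10.10, 9.81 and 9.90 against 9.75, 9.65 and 9.79 log2 units with rat IgG. The gap between anti-CD25 2 and rat IgG 3 was narrow, and the highest value, on anti-CD25 1, carried much of the difference. The means were 9.94 ± 0.15 with anti-CD25 and 9.73 ± 0.070 with rat IgG (SD, n = 3 each), a difference of 0.21 (SE 0.097, 95% interval -0.012 to 0.43, limma unadjusted p = 0.0615, adjusted p = 0.750). It was 0.25 within the 4 Xist-high arrays, 0.11 between the 2 others and 0.13 without anti-CD25 1. Frzb, a relative that binds Wnt ligands in cartilage and muscle precursors, was lower without overlap, at 8.33, 8.33 and 8.23 with anti-CD25 against 8.50, 8.41 and 8.46 with rat IgG. Its difference was -0.16 (SE 0.078, 95% interval -0.34 to 0.017, limma unadjusted p = 0.0705, adjusted p = 0.750), and -0.12 and -0.23 within the 4 Xist-high arrays and between the 2 others. Exact two-sided permutation gave p = 0.1 for both genes.

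The other secreted Frizzled-related proteins overlapped between groups. Sfrp1 measured 8.55, 8.34 and 8.50 with anti-CD25 against 8.37, 8.31 and 8.50 with rat IgG (difference 0.070, 95% interval -0.14 to 0.28). Sfrp4 spread more widely than any other member above the median, over 0.932 log2 units, at 9.48, 9.51 and 8.76 with anti-CD25 against 9.70, 9.47 and 9.05 with rat IgG. The 2 lowest values belong to the Xist-low arrays, and the difference of -0.15 (SE 0.22) became 0.092 without anti-CD25 3. Sfrp5, an inhibitor known from fat tissue, crossed the array median on 4 of 6 arrays and differed by -0.15 (SE 0.19), with rat IgG 1 at 7.02 and rat IgG 2 at 7.81. Its difference was -0.39 without rat IgG 1 and 0.0038 without rat IgG 2.

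In the Dickkopf family, Dkk2 was the 1 member above the median on all arrays. It measured 7.85, 7.95 and 7.71 with anti-CD25 against 7.93, 7.94 and 7.93 with rat IgG, with overlap and a difference of -0.098 (SE 0.086) that was -0.034 without anti-CD25 3 and -0.15 without anti-CD25 2. Dkk1, the inhibitor that blocks the co-receptors Lrp5 and Lrp6, had the widest difference of all members, -0.33 (SE 0.18, 95% interval -0.74 to 0.074, limma unadjusted p = 0.0972, adjusted p = 0.750). It was dim, at 5.95, 5.90 and 6.10 with anti-CD25 against 6.59, 6.51 and 5.85 with rat IgG. Rat IgG 3 lay below every anti-CD25 array, so the groups overlapped, and the difference was -0.62 within the 4 Xist-high arrays and 0.25 between the 2 others. Dkk1 lay higher on anti-CD25 3 and rat IgG 1 and 2, the arrays with the higher lower quartile, than on the rest. Its difference and the shift of dim values cannot be told apart. Leaving out rat IgG 3 gave -0.57, and leaving out rat IgG 1 gave -0.20. Dkk3, Dkk4 and Dkkl1, below the median throughout, differed by 0.052, 0.041 and -0.023. The Dkk4 difference was -0.095 within the 4 Xist-high arrays and 0.31 between the 2 others. Wif1, which binds Wnt ligands through its own domain, measured 7.35, 7.87 and 7.38 with anti-CD25 against 7.49, 7.84 and 7.70 with rat IgG, with overlap and a difference of -0.15 (SE 0.15). It was -0.056 without anti-CD25 1 and -0.32 without anti-CD25 2.

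**Figure D3:**
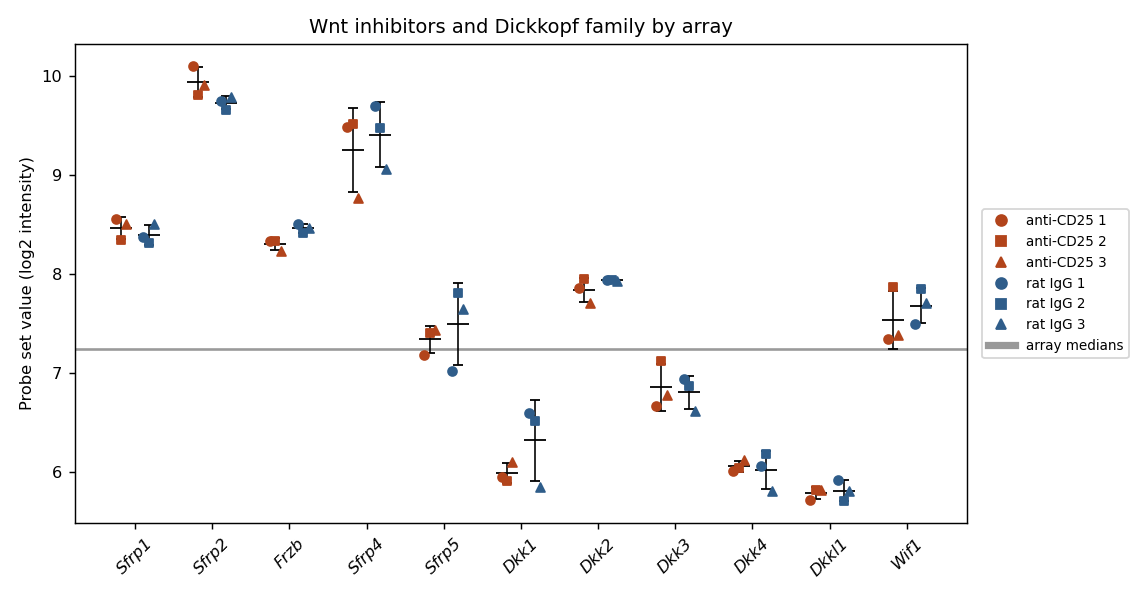
Log2 intensity (y axis) of the 11 inhibitor family genes on each array, with anti-CD25 left of rat IgG, symbols for arrays 1, 2 and 3, and bars for the mean and SD of 3 arrays. Sfrp2 lies higher and Frzb lower with anti-CD25 without overlap, and Dkk1 is low on all anti-CD25 arrays and on rat IgG 3.

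Promoter sequences are shown for Fzd7, Frzb and Sfrp2, the 3 members without overlap between groups that the RefSeq promoter table (GRCm38.p6) could be used for. That table held 28 of the 41 members. Each window runs 5′ to 3′ on the gene's strand, from 250 bases before to 50 after the start. Capitals mark GC boxes, the letters GGGCGG on either strand. The windows lie at chr1:59481897-59482196 (plus strand, Fzd7), chr2:80447347-80447646 (minus strand, Frzb) and chr3:83766071-83766370 (plus strand, Sfrp2).
Fzd7: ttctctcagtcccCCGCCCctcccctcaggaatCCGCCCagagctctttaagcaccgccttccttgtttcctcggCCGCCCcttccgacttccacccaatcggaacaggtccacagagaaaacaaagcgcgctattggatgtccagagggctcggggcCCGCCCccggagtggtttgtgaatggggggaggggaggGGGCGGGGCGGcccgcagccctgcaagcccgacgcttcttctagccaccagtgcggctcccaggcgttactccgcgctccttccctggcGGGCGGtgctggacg
Frzb: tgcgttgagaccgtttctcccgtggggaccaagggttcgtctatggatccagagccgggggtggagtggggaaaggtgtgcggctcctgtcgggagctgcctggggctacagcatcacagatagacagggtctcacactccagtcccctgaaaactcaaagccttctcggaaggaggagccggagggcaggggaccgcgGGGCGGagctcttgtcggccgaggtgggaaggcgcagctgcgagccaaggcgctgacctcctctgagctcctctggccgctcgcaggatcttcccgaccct
Sfrp2: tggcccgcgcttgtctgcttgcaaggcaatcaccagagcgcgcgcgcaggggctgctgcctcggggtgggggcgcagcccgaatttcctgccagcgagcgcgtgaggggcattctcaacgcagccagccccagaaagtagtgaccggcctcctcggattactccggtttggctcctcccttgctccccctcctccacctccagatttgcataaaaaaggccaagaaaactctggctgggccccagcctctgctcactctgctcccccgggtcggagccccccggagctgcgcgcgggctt
The Fzd7 window held 7 GC boxes, of which 2 overlap by a base, the Frzb window held 1 and the Sfrp2 window held 0, while 35.7% of the 32851 windows in the table hold at least 1. The TCF/LEF core CTTTGAT, searched on both strands, was in none of the 3 windows and in 3.73% of all windows. The TATA box letters TATAAA, also searched on both strands, were in none of the 3 and in 13.6% of all. CpG pairs numbered 24, 20 and 22 in the order Fzd7, Frzb and Sfrp2, against a median of 7 over all windows. Over the windows of the 28 members they ran from 4 (1 window of Wnt5b) to 58 (Wnt9a), and GC boxes ran from 0 to 10 (Fzd5). Wnt5b had other windows with 7 and 47 CpG pairs, and Wnt11 also had more than 1 window. These counts thus do not set the 3 genes apart from the other members.

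Of the ligands 16 of 19 were lower with anti-CD25, by small amounts. None of the 19 had an unadjusted p under 0.05, and none was without overlap between groups. Wnt4, a ligand of the kidney, gonad and muscle lineages, measured 8.05, 8.004 and 7.93 with anti-CD25 against 8.002, 8.28 and 7.72 with rat IgG, so the rat IgG arrays spanned the others (difference -0.0052, 95% interval -0.31 to 0.29). The difference was -0.11 within the 4 Xist-high arrays and 0.21 between the 2 others. The second probe set of Wnt4, the 1 member with more than 1, differed by -0.078. Wnt5a, the main ligand of the beta-catenin-independent branch, measured 7.59, 7.68 and 7.33 with anti-CD25 against 7.67, 7.64 and 7.45 with rat IgG, and Wnt9a measured 7.62, 7.65 and 7.67 against 7.70, 7.72 and 7.59. Both overlapped, with differences of -0.057 (95% interval -0.31 to 0.19) and -0.024 (95% interval -0.20 to 0.16).

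The other 16 ligands, among them Wnt7a, the partner of Fzd7 in satellite cells, and Wnt1 and Wnt3a, the classical activators of beta-catenin, averaged between 5.12 and 7.17 log2 units over the 6 arrays. Wnt1, Wnt8a and Wnt8b lay below the lower quartile on all 6. In 13 of the 16 the value was lower with anti-CD25, with differences from -0.16 (Wnt8b) to 0.076 (Wnt3) and a median of -0.078. Of all genes that were not above the median on all 6 arrays 70.8% were lower, with a median of -0.063, and after a second quantile normalization the median of the 16 ligands was -0.031 and that of these genes -0.011. Wnt8b, a ligand of the embryonic brain, measured 5.08, 5.25 and 5.45 with anti-CD25 against 5.57, 5.46 and 5.21 with rat IgG, with overlap, and its difference was -0.35 within the 4 Xist-high arrays and 0.24 between the 2 others. Wnt7a measured 5.57, 5.62 and 5.75 with anti-CD25 against 5.85, 5.93 and 5.40 with rat IgG. The lowest of the 6 values was on rat IgG 3. Wnt3a followed the same order, at 6.57, 6.57 and 6.81 against 6.94, 6.96 and 6.21, and Wnt10a spread most in this class, at 7.18, 7.00 and 7.32 against 7.31, 7.53 and 6.67.

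This order matches that of the arrays' lower quartiles. In 10 of the 16 ligands all 3 arrays with the higher lower quartile, anti-CD25 3 and rat IgG 1 and 2, lay above the other 3 arrays, which is 62.5% beside 18.2% of all genes and 34.4% of the genes below the median on all 6 arrays. Within the 4 Xist-high arrays 15 of the 16 were lower with anti-CD25, with a median of -0.24, and between the 2 Xist-low arrays 2 of the 16 were lower, with a median of 0.27. For genes below the median on all 6 arrays these medians were -0.16 and 0.087. After a second quantile normalization the medians of the 16 ligands were -0.14 and 0.16, and those of the dim genes were -0.026 and 0.0094. In that normalization 8 of the 10 showed the order, which is 50% of the 16 beside 9.56% of all genes and 13.1% of the genes below the median on all 6 arrays.

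**Figure D4:**
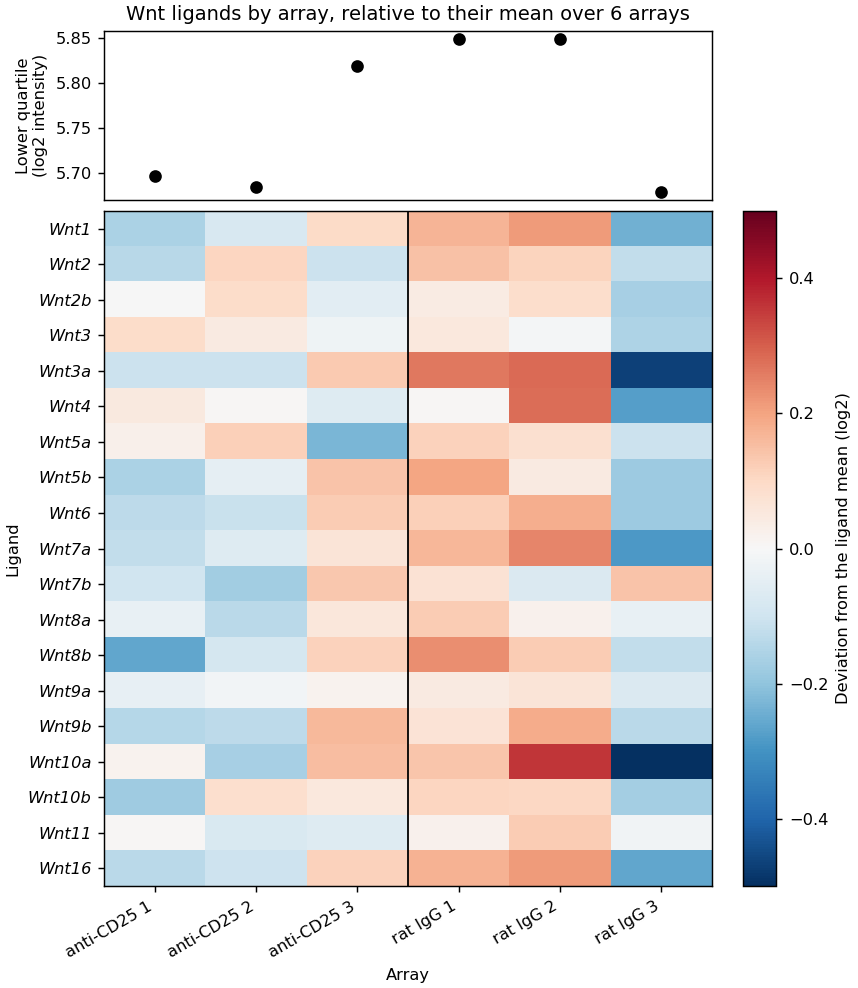
Heat map of the 19 Wnt ligands (rows) on the 6 arrays (columns, anti-CD25 left of the line and rat IgG right of it), coloured by the deviation in log2 units from each ligand's mean. The upper panel gives each array's lower quartile in log2 units. The arrays with a high lower quartile, anti-CD25 3 and rat IgG 1 and 2, are the ones where most ligands are red.

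The rest of the pathway was taken from 5 lists of textbook genes, 115 of 120 of them measured and counted once. None of the 115 passed limma's test adjusted over all genes. At an unadjusted p under 0.05 there were 3 lower and 2 higher, beside 3.98% and 2.3% of all genes. Values were lower with anti-CD25 in 72 of the 115, which is 62.6% beside 58.9% of all genes. The median difference was -0.051, against -0.026 over all genes. The same 58.9% stands beside the count of lower genes in each list below. Above the array median on all 6 arrays were 82 of the 115. Of all genes above it on all 6 arrays 45.8% were lower, and of the other genes 70.8%.

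Among co-receptors and other Wnt receptors, 10 of 16 measured genes were lower, and none passed. Lrp4, a receptor for agrin at the neuromuscular junction that also binds Wnt ligands, had the smallest p of all these lists. It measured 7.89, 7.88 and 7.78 with anti-CD25 against 8.06, 8.13 and 8.10 with rat IgG, without overlap (difference -0.25, SE 0.078, limma unadjusted p = 0.0111, adjusted p = 0.750). Musk, its partner kinase at the junction, lay the other way, at 9.51, 9.75 and 9.80 against 9.37, 9.33 and 9.59, with overlap (difference 0.25, SE 0.11, limma unadjusted p = 0.0462, adjusted p = 0.750). The canonical co-receptors Lrp5 and Lrp6 differed by -0.084 and 0.095, the second without overlap. The Wnt5a receptors Ror1 and Ror2 differed by 0.13 and 0.12 and the kinase-like Ryk by 0.040. The R-spondin receptors Lgr4, Lgr5 and Lgr6 differed by 0.12, -0.15 and -0.048.

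Among secretion factors and extracellular modifiers, 17 of 25 genes were lower. Igfbp6, a binding protein of insulin-like growth factors, measured 9.51, 9.79 and 9.39 with anti-CD25 against 9.76, 10.05 and 9.83 with rat IgG, with overlap (difference -0.31, SE 0.12, limma unadjusted p = 0.0307, adjusted p = 0.750). Sulf1, a sulfatase that trims heparan sulfate at the cell surface, was higher without overlap, at 9.41, 9.43 and 9.41 against 9.25, 9.11 and 9.32 (difference 0.19, SE 0.084, limma unadjusted p = 0.0481, adjusted p = 0.750). Wls, which carries Wnt ligands to the cell surface, differed by 0.13. The R-spondins Rspo1, Rspo2 and Rspo3, which stabilise Frizzled receptors, differed by -0.12, -0.12 and -0.074 and were below the median on all arrays, as was the ligand-inactivating enzyme Notum at -0.045.

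Inside the cell, 17 of 30 measured genes of the beta-catenin relay were lower. Beta-catenin itself, Ctnnb1, measured 11.06, 11.21 and 11.23 with anti-CD25 against 11.23, 11.01 and 11.06 with rat IgG (difference 0.065, 95% interval -0.15 to 0.28). Bcl9l, a co-activator of beta-catenin, was lower without overlap, at 8.70, 8.66 and 8.51 against 8.87, 9.003 and 8.83 (difference -0.28, SE 0.090, limma unadjusted p = 0.0134, adjusted p = 0.750). Frat1, an inhibitor of the kinase GSK3, differed by -0.15. Of the planar polarity and calcium genes 19 of 30 were lower, none with an unadjusted p under 0.05. Camk2b, a calcium-dependent kinase, and Scrib, a polarity protein, differed by -0.18 and -0.15, and the core polarity gene Vangl2 by -0.064.

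Of 20 measured target genes of the canonical branch 15 were lower, with a median of -0.078, and none had an unadjusted p under 0.05 or was without overlap. Axin2, a feedback target often read as the output of the pathway, measured 6.98, 7.04 and 6.99 with anti-CD25 against 7.24, 7.29 and 7.03 with rat IgG. Its groups overlapped at rat IgG 3, and the difference was -0.18 (SE 0.092, limma unadjusted p = 0.0750, adjusted p = 0.750), with -0.26 within the 4 Xist-high arrays and -0.043 between the 2 others. Tnfrsf19, another target, measured 7.77, 7.94 and 7.47 against 8.01, 8.10 and 7.83 (difference -0.25, SE 0.13), and with each array left out in turn its difference ran from -0.36 to -0.12. The widest difference of the list was that of Myc, a growth regulator, at 0.29 (SE 0.24), with 0.64 within the 4 Xist-high arrays and -0.42 between the 2 others, and Cd44, a receptor for hyaluronan, differed by 0.21 (SE 0.13). Lef1 differed by -0.18, with -0.30 within the 4 Xist-high arrays and 0.069 between the 2 others, and the feedback inhibitors Nkd1 and Nkd2 by -0.071 and 0.032. Tcf7 is not analysed here.

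**Figure D5:**
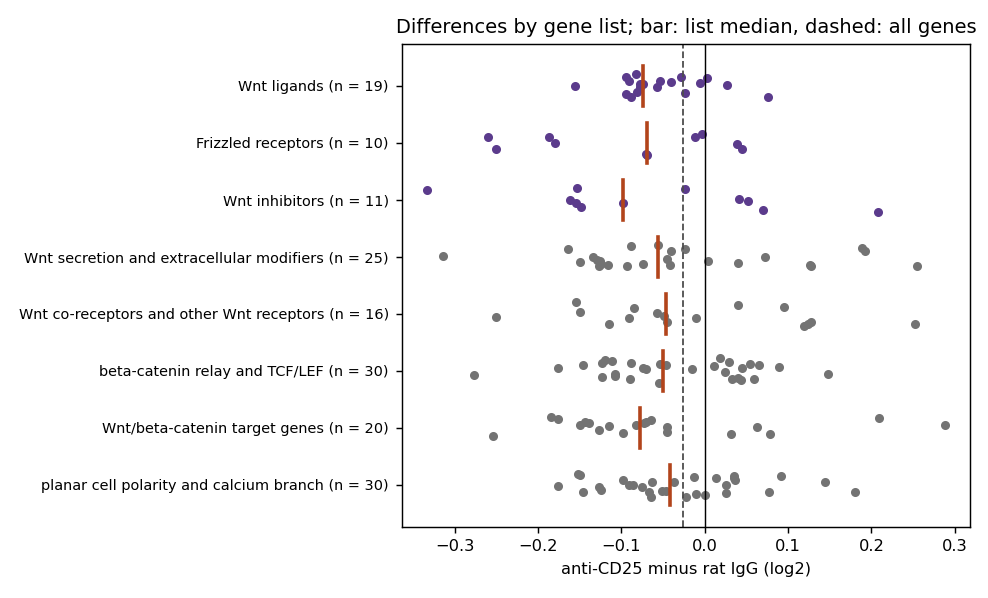
Differences in log2 units, anti-CD25 minus rat IgG (x axis), for the genes of each list (points) with the list median (bar) and the median of all genes (dashed line, -0.026). The 3 upper rows are the members and the 5 lower rows the other pathway genes. All 8 list medians lie below the median of all genes, and single genes spread to both sides of 0.

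Marker lists of the cells that could carry these receptors and inhibitors had median differences closer to 0 than the macrophage list, whose median was 0.30. Satellite cell and myoblast genes were lower in 5 of 8 (median -0.084), none at 0, and their summed intensity was 3731 to 4327 on the anti-CD25 arrays and 3878 to 4291 on the rat IgG arrays. Genes of fibroblasts and fibro-adipogenic progenitors were lower in 6 of 11 (median -0.017), none at 0, with sums of 31950 to 34279 and 32888 to 33973 in the same order. Endothelial genes were lower in 5 of 8 (median -0.016). Smooth muscle and pericyte genes were lower in 4 of 8 (median -0.0094). Schwann cell genes were lower in 5 of 5 measured (median -0.18), with rat IgG 2 at 0.36 log2 units relative to the mean of the 6 arrays. Pax7, the factor that marks satellite cells, measured 8.31, 8.17 and 8.20 with anti-CD25 against 8.45, 8.33 and 8.34 with rat IgG, without overlap (difference -0.14, SE 0.082, limma unadjusted p = 0.116, adjusted p = 0.750). Calcr was also lower without overlap (-0.16), Myod1 and Cdh15 differed by -0.17 and -0.15 with overlap, and Vcam1, Myf5 and Myog were higher with overlap, by 0.16, 0.058 and 0.0073. The part of any of them in the values of Fzd7, Frzb or Sfrp2 was not tested.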

How the data were processed

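RNA of 6 muscle samples was hybridised to Affymetrix arrays. The authors deposited 1 table of linear intensity values for 24922 probe sets, made with RMA in Affymetrix Power Tools per the submitters' processing notes; versions: not given in the sources used here. RMA includes quantile normalization, yet lower quartiles of the deposited values are unequal over the arrays, and RMA draws dim values together, which understates their differences. All values were above 0 and log2 was taken with no pseudocount.

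Probe sets were named through the platform annotation, with 21425 rows carrying 1 symbol; 0 symbols needed an update by Entrez identifier (GRCm38.p6). The highest-mean probe set stood for each of 19752 genes, with no intensity filter. The 41 members came from 42 rows. Groups follow the titles. Each gene was tested with limma 3.58.1 in R 4.3.3 (lmFit, eBayes, two-sided, Benjamini-Hochberg over all genes, threshold 0.05), and the fit was tested on simulated data. Single values were compared by exact permutation. The number of arrays limits the precision.

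Members and lists were chosen with earlier results of these data known. By rule, per-array values go to members above the array median on all 6 arrays and to the 8 with the smallest unadjusted p. From each pathway list come the 2 smallest p and a set of fixed genes. Others named were chosen after their values were seen. The genes most like single members over the 6 arrays, which the rule also provides for, are not given, because so few arrays give such a match no error. Alternatives were a second quantile normalization, median centring, trend with robust fitting, array weights, filters, the mean of all probe sets, a replicate block, Xist kind as a block or alone, and leaving out each array.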

Additional observations from a re-analysis of the deposited data

How the results depend on the processing

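No alternative called any of the 41 members or any of the 115 other pathway genes (0 in each), and the smallest adjusted p of a member over the 17 alternatives was 0.0774, for Dkk1 within the 4 Xist-high arrays. In those 4 arrays the antibody groups and the shift of dim values split alike and cannot be told apart. Over all genes 0 were called in each alternative except without rat IgG 3, where 7 passed, none of them a member, so the count ran from 0 to 7 with 1 array left out. With the replicate number as a block the fit also called 0. This block, like that of Xist kind, is balanced over the groups and cannot change the differences. The 32 lower members and the median of -0.071 were therefore the same as without it by construction. Whether the numbers in the titles pair the arrays cannot be settled with so few arrays. Deviations of same-numbered arrays correlated at 0.030, -0.0067 and -0.17. No anti-CD25 array correlated best with the rat IgG array of its own number. In both groups, however, arrays 1 and 2 were Xist-high and array 3 was Xist-low. The median difference over members ran from -0.14 to -0.012 with 1 array left out and was -0.12 within the 4 Xist-high arrays. Lower members numbered 24 to 36 of 41 with 1 array left out, and 13 above the 50th percentile of mean intensity, where fewer members were tested. The 16 genes above the median stayed 16 with each array left out, and 32 passed the 30th percentile in its place. Of the 19 members given per array by the rule, 11 had the same sign in each of the 17 alternatives that tested them. Among the 11 were Fzd7, Fzd8, Fzd3, Fzd2, Sfrp2, Frzb and Dkk1. The filter at the 50th percentile did not test Fzd3 or Dkk1, and neither filter tested Wnt8b. Filters, trend with robust fitting and blocks cannot change a gene's difference, so they could not turn a sign. The mean of all probe sets could change only Wnt4. Between the 2 Xist-low arrays alone, which is not one of the 17 alternatives, Dkk1 was 0.25 and Wnt8b 0.24. The other 8 lay near 0 or rested on 1 array, and the cause was not tested. With 1 array left out the difference ran from -0.0074 to 0.067 for Fzd1, from -0.011 to 0.099 for Fzd4, from -0.078 to 0.043 for Fzd6, from -0.14 to 0.13 for Fzd9, from -0.33 to 0.092 for Sfrp4, from -0.14 to 0.13 for Wnt4, from -0.13 to 0.044 for Wnt5a and from -0.066 to 0.0024 for Wnt9a. Median centring gave 0.0049 for Fzd6 and 0.0027 for Wnt4, and the 4 Xist-high arrays gave 0.0033 for Fzd9. RMA draws dim values together, so small differences of most ligands do not show that they were unchanged.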
